A study of Hydra vulgaris with 2 samples.

Results

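The transcripts described here are 3 mucin-type mRNAs found in RNA from extracellular vesicles (EVs) of the freshwater polyp *Hydra vulgaris*: mucin-2-like LOC105850540, mucin-5AC-like LOC105848110 and mucin-5AC-like LOC100198870. They were chosen by their measured pair of TPM values, the abundance of a transcript corrected for its length and scaled to a fixed total, in both libraries, so these values are given as a description and no test was made on them. For LOC100198870 the protein is also in the vesicle protein list of the study, where it is named as uncharacterized and not as a mucin. Each pair of values belonged to a single target, that is a single listed transcript, out of 25314 targets in all: XM_012711006.1 for LOC105850540, XM_012708073.1 for LOC105848110 and XM_002159961.2 for LOC100198870. Another 10 genes carry the word mucin in their description in the given part of the supplementary gene list, which makes 13 mucin genes with the chosen ones.

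EVs are small particles enclosed by a membrane that cells shed. RNA was taken from EVs pelleted out of the medium of 4-day starved polyps of strain Zurich and sequenced as 2 libraries of 1 condition, called EV library 1 (titled ExoRNA5000Hy) and EV library 2 (titled ExoRNA11250Hy). Before extraction both EV samples were digested by proteinase K and then by RNAse A, and they share strain, starvation and digestion. No whole-polyp RNA was used here, so the values are levels within EV RNA, and more vesicles with a transcript cannot be told apart from more copies per vesicle. The study calls the libraries biological replicates, but the numbers of animals behind them are not clear. Each title carries a number that the labels do not explain. If these numbers are polyps, their sum is above the total that the methods of the study give for both libraries.

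Mucins are large glycoproteins whose stretches rich in serine, threonine and proline are decorated with O-linked sugars. In mammals MUC2 of the intestine and MUC5AC of the airways and stomach are secreted, linked through disulfide bonds and swollen to the gel that covers the epithelium, whereas other mucins stay in the cell membrane. In *Hydra* mucous gland cells of the head secrete mucus into the gut, and the outer face of the ectoderm is covered by a glycocalyx. The names of the *Hydra* genes were given by sequence similarity, and the function of their products was not measured here. Mucin genes outside the given part of the gene list were not analysed here. The table of another *Hydra* assembly that was used for names holds 3 of the 13 mucin genes and none of the chosen 3, so neither positions nor sequences are given.

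Estimated counts, the reads that kallisto assigned to a target, summed to 5943550 in library 1 and to 3943873 in library 2, but the 5 most abundant targets took 97.0% and 98.7% of them. Outside those targets mRNA held 142638 estimated counts in library 1 and 34881 in library 2, and 11902 and 3235 of the 21982 mRNA targets had any. Because TPM share one total with the few abundant targets, each value below is also given per 10000 of these mRNA counts where the scale matters. Intervals are exact 95% Poisson intervals of the rounded counts, and they cover counting error only.

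Of the mucin-2-like genes LOC105850540 had the highest level in each library. Its target of 1525 bases had 691 estimated counts in library 1 (640 to 744) and 35.0 in library 2 (24.4 to 48.7). These correspond to 69.0 TPM in library 1 (64.0 to 74.4) and 5.55 TPM in library 2 (3.87 to 7.73), and the intervals do not overlap. The mean was 37.3 ± 44.9 TPM (SD, n = 2 libraries), so the spread between the libraries was larger than the mean. Among mRNA targets it ranked 21 in library 1 and 78 in library 2. Its estimated counts were fractional in both libraries, which means that part of its reads also fitted another target and was split by the model.

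LOC105848110 was a mucin-5AC-like gene with more reads but a lower level per length. The target is 2747 bases long and had 885 estimated counts in library 1 (828 to 945) and 28 in library 2 (18.6 to 40.5). Per length this was 47.7 TPM in library 1 (44.6 to 50.9) and 2.40 TPM in library 2 (1.59 to 3.46), with a mean of 25.04 ± 32.0 TPM (SD, n = 2). In library 1 it took more estimated counts than any other of the 13 mucin genes, and in library 2 LOC101234471, LOC105850540 and LOC105849558 had more. The rank among mRNA targets was 31 in library 1 and 175 in library 2.

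LOC100198870, the mucin-5AC-like gene whose protein was listed in vesicles, had the lowest level of the 3. Its target of 1608 bases had 217 estimated counts in library 1 (189 to 248) and 12 in library 2 (6.20 to 21.0). This gave 20.5 TPM in library 1 (17.9 to 23.4) and 1.8 TPM in library 2 (0.930 to 3.15), and a mean of 11.1 ± 13.2 TPM (SD, n = 2). It ranked 117 and 219 among mRNA targets. A floor of 3 counts on this target is 0.283 TPM in library 1 and 0.450 TPM in library 2, so both values stood above it, as did those of LOC105850540 and LOC105848110 above 0.300 and 0.162 TPM in library 1 and 0.476 and 0.257 TPM in library 2.

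**Figure D1:**
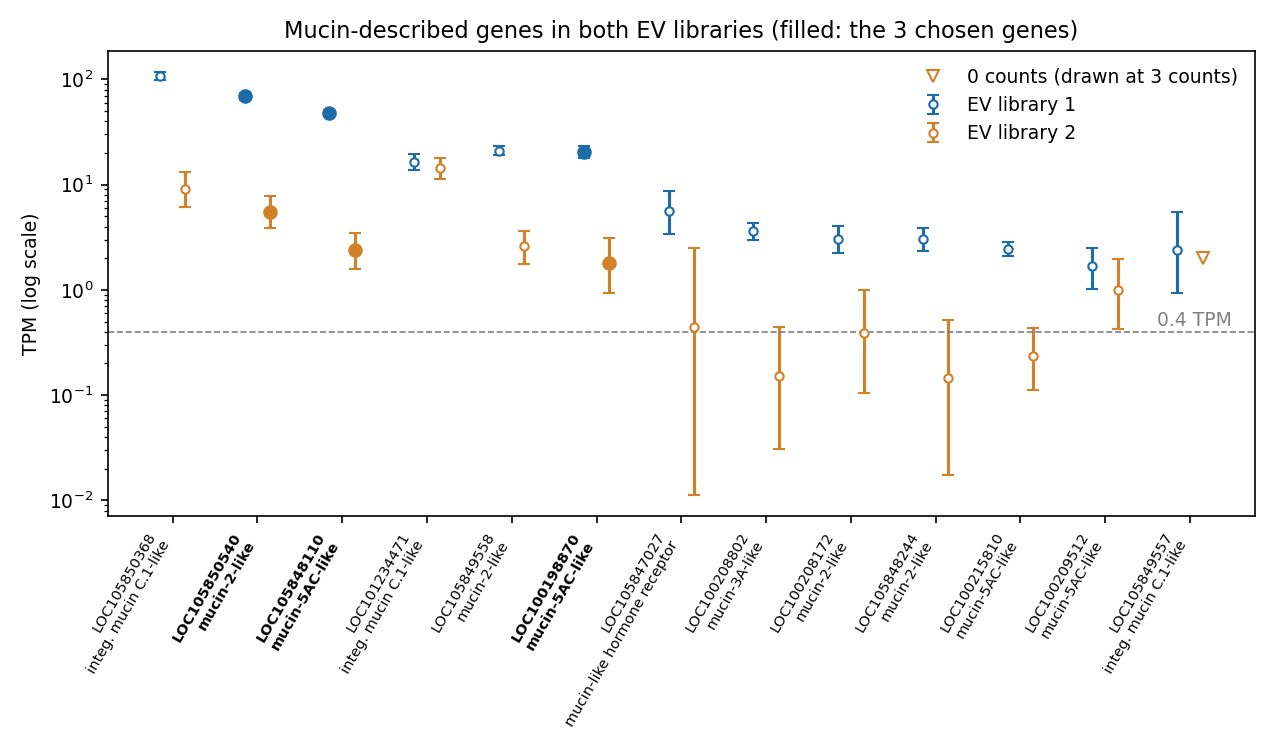
TPM on a log scale for the 13 mucin genes in EV library 1 (blue) and EV library 2 (orange), with exact 95% Poisson intervals of counting error; filled symbols and bold names mark the chosen genes, the dashed line is 0.4 TPM, and the triangle is a gene at 0 counts drawn at the TPM of 3 counts. The 3 chosen genes lie between 20.5 and 69.0 TPM in library 1 and between 1.8 and 5.55 TPM in library 2, while LOC101234471 is near 15 TPM in both.

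The order of the 3 chosen genes was the same in both libraries, LOC105850540 above LOC105848110 above LOC100198870, but how firm it is differs. In library 1 LOC105850540 was at 1.45 times the TPM of LOC105848110 (exact 95% interval of the count ratio 1.31 to 1.60), and LOC105848110 at 2.33 times that of LOC100198870 (2.0 to 2.71). In library 2 the first ratio was 2.32 (1.37 to 3.96), above 1 as well. The second was 1.33 (0.655 to 2.87), so on 28 and 12 counts a difference between the mucin-5AC-like genes was not detectable at this depth. LOC105850540 was 3.37 times as high as LOC100198870 in library 1 (2.89 to 3.94) and 3.08 times in library 2 (1.56 to 6.53), and these intervals overlap.

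All 3 genes were much higher in library 1. The fold of library 1 over library 2 in TPM was 12.4 for LOC105850540 (8.85 to 18.0), 19.9 for LOC105848110 (13.7 to 30.1) and 11.4 for LOC100198870 (6.38 to 22.4). The 3 intervals overlap one another. Per 10000 mRNA counts LOC105850540 had 48.4 in library 1 and 10.0 in library 2, LOC105848110 62.0 and 8.03, and LOC100198870 15.2 and 3.44. With TPM rescaled within mRNA, which shifts the log2 of each of these TPM folds by -0.89, the folds were 6.73, 10.8 and 6.15.

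Most mRNAs of these libraries had the same direction. Where an mRNA target had 10 or more counts in each library, 50.3% were at least 4-fold higher in library 1 in TPM (86 of 171), and of those with at least 100 counts in library 1 this held for 79.3% (130 of 164). The chosen genes are among them, 3 of 3, which follows from the values that chose them. On the log2(TPM + 0.1) scale the ratio of library 1 over library 2 had a median of 2.0 over the 171 targets and of 3.0 over the 164, against 3.61 for LOC105850540, 4.26 for LOC105848110 and 3.43 for LOC100198870. Of the 171 targets 14 had a ratio at or above that of LOC105850540 (8.19%), 3 at or above that of LOC105848110 (1.75%) and 17 at or above that of LOC100198870 (9.94%). Of the 164 targets, a set without a limit on library 2 that was chosen after seeing the data, it was 52 (31.7%), 20 (12.2%) and 63 (38.4%). Where the chosen genes stand among mRNAs therefore depends on the filter.

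**Figure D2:**
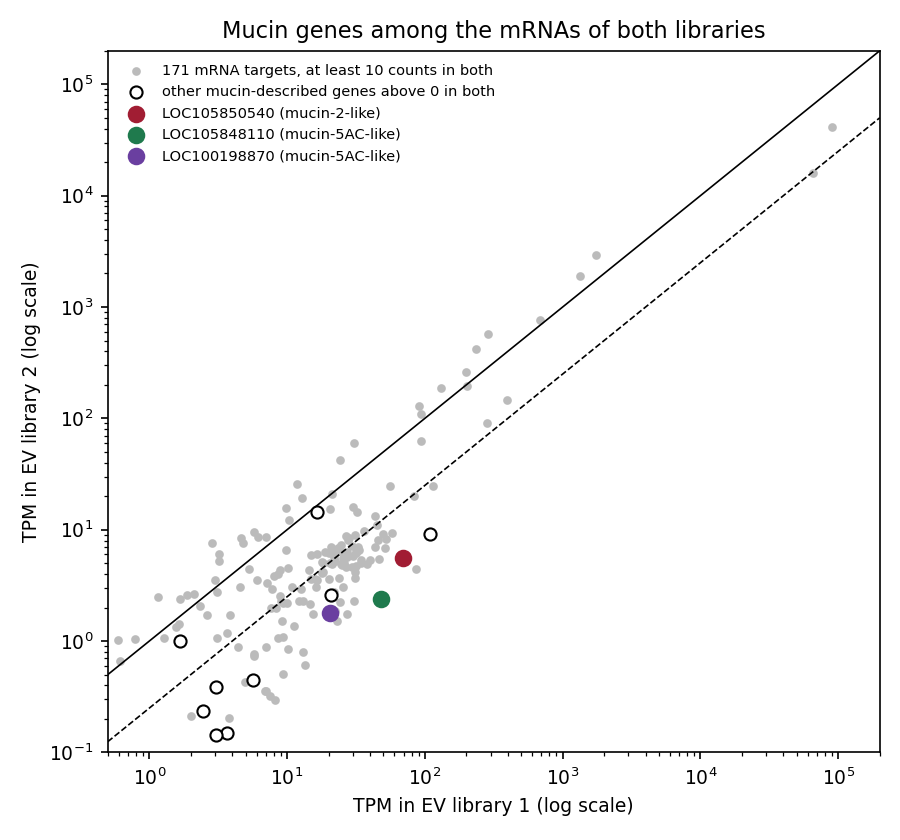
TPM in EV library 1 (x axis) against EV library 2 (y axis), both on log scales, for 171 mRNA targets with 10 or more counts in each library (grey), the chosen genes (coloured) and the other mucin genes above 0 in both (open circles). The solid line marks equal TPM and the dashed line a 4-fold higher value in library 1; the 3 chosen genes lie below the dashed line, with folds of 11.4 to 19.9.

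**Figure D3:**
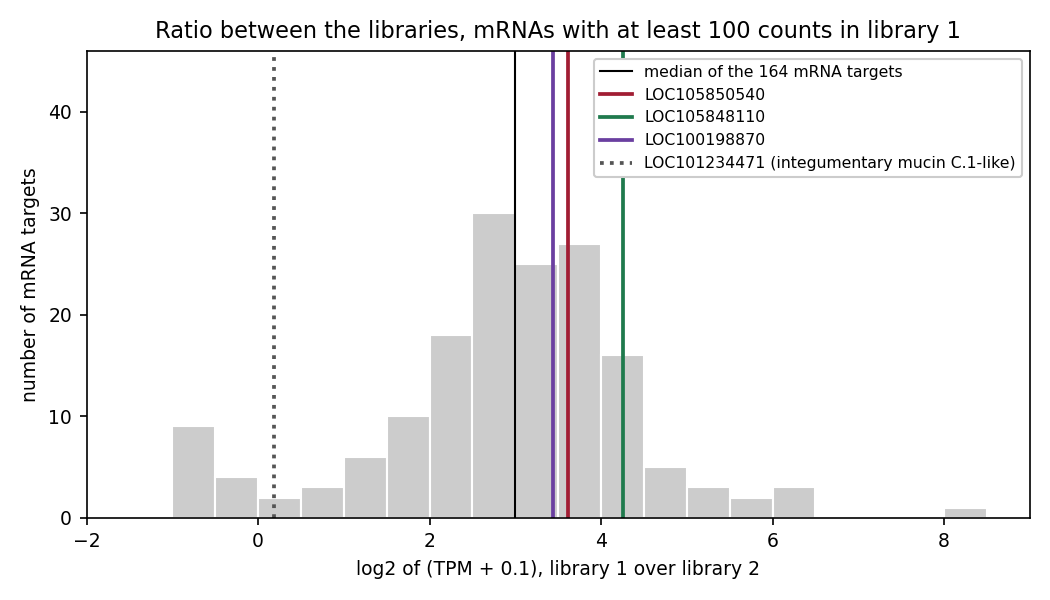
Number of mRNA targets (y axis) by the log2 ratio of TPM + 0.1, library 1 over library 2 (x axis), for the 164 mRNA targets with at least 100 estimated counts in library 1. The black line is their median of 3.0, the coloured lines are the chosen genes at 3.43 to 4.26, and the dotted line is LOC101234471 at 0.18.

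A ratio between genes of one library does not depend on the scale of TPM, and the level of each mucin was therefore also set against actin, the protein of thin filaments (the higher of 2 actin genes, LOC100202036, 114 TPM in library 1 and 24.9 TPM in library 2). LOC105850540 reached 0.605 of the actin level in library 1 (0.549 to 0.667) and 0.223 in library 2 (0.150 to 0.325). For LOC105848110 it was 0.418 (0.382 to 0.458) in library 1 and 0.0963 (0.0618 to 0.145) in library 2. For LOC100198870 it was 0.179 (0.154 to 0.208) and 0.0724 (0.0365 to 0.130). For each of the 3 genes the interval of library 1 lies above that of library 2, which describes the values that chose them and is no test.

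The other mucin genes show that the chosen 3 are neither the most abundant nor a complete set. Integumentary mucin C.1-like LOC105850368, named after a mucin of frog skin, was the highest of the 13 in library 1 with 108 TPM on 526 estimated counts, and had 9.18 TPM on 28 counts in library 2. It was at 1.57 times the TPM of LOC105850540 in library 1 (1.40 to 1.76) and at 1.65 times in library 2 (0.968 to 2.79), where the interval includes 1. Mucin-2-like LOC105849558 had 21.0 TPM in library 1 and 2.6 TPM in library 2, on 410 and 32 estimated counts. Its ratio to LOC100198870 was 1.02 in library 1 (0.866 to 1.21) and 1.44 in library 2 (0.724 to 3.08), so that these genes could not be ranked in either library.

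A second integumentary mucin C.1-like gene, LOC101234471, had another pattern. It stood at 16.5 TPM in library 1 (13.9 to 19.5) and at 14.5 TPM in library 2 (11.4 to 18.1), and these intervals overlap. LOC105850540 was at 4.19 times its TPM in library 1 (3.48 to 5.06) and at 0.383 times in library 2 (0.250 to 0.581), where LOC101234471 was the highest of the 13. Its log2 ratio of library 1 over library 2 was 0.18 with TPM as deposited but -0.70 within mRNA, so its direction depends on the scale. Its estimated counts of 138 and 76.1 were fractional in both libraries, and which targets shared these reads was not examined.

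The remaining 7 mucin genes were under 10 TPM in each library. Mucin-3A-like LOC100208802, named after a membrane-bound mucin of the human gut, had 3.64 TPM in library 1 and 0.151 TPM in library 2. Mucin-2-like LOC100208172 had 3.07 and 0.387 TPM, and mucin-2-like LOC105848244 had 3.05 and 0.144 TPM. Mucin-5AC-like LOC100215810 has by far the longest target, 9753 bases, and its 166 and 10 estimated counts were only 2.46 and 0.235 TPM. Mucin-5AC-like LOC100209512 had 1.67 TPM in library 1 and 0.992 TPM in library 2, with a log2 ratio of 0.70 that became -0.13 within mRNA. Integumentary mucin C.1-like LOC105849557 had 5.68 estimated counts in library 1 and 0 in library 2, or 2.41 TPM (0.933 to 5.53) against 0 TPM (0 to 2.50). These intervals overlap, and 3 counts in library 2 would be 2.03 TPM, so its direction is not settled. LOC105847027, described as an EGF-like module-containing mucin-like hormone receptor, a type of adhesion receptor coupled to G-proteins rather than a secreted mucin, had 5.61 and 0.447 TPM on 20 and 1 estimated counts.

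A gene counted as detected in the study if either library reached 0.4 TPM. The list that gave the 13 mucin genes holds detected genes only, so that 13 of the 13 passed was fixed beforehand. With the same level asked of both libraries, a stricter rule, 8 passed. The share of all mRNA targets that pass this rule is not given here, so the count is not read as high or low. Of the 12 genes with counts in both libraries, TPM as deposited was higher in library 1 for 12, beside 83.9% of the mRNA targets above 0 in both and 81.9% of those with 10 or more counts in each. Within mRNA it was higher for 10 of these 12, the exceptions being LOC101234471 and LOC100209512, and for LOC105849557, at 0 in library 2, the direction is not settled on either scale. At least 4-fold higher in library 1 were 10 of the 12, or 7 of the 9 outside the chosen ones, beside 43.7% of the mRNA targets above 0 in both (1237 of 2833). That share was 50.3% and 79.3% under the filters above. The mucin genes come from a list that asks for 0.4 TPM in either library, and these background shares do not. A gene can enter that list by a high value in library 1 alone, so no excess is read from the comparison. The same holds for the gene lists further below. Their counts of genes under 3 counts in library 2, or at 0.4 TPM in both, also stand without a share over all mRNA targets. The median log2 ratio of the 13 was 3.43, or 3.38 with LOC105849557 set against 3 counts in library 2, beside the medians of 2.0 and 3.0 over mRNA targets. In library 1 the estimated counts of 10 of these genes were fractional, and in library 2 those of 2.

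Summed over the 13 genes, mucin transcripts made up 305 TPM in library 1 and 38.4 TPM in library 2. They held 2.32% of the mRNA counts outside the 5 most abundant targets in library 1 and 0.685% in library 2. The chosen 3 genes made up 137 and 9.75 TPM, which is 45.0% of the mucin TPM in library 1 and 25.4% in library 2. Counted in reads their share was 54.1% (95% Wilson interval 52.4 to 55.8) and 31.3% (25.8 to 37.5). In library 2 LOC101234471 alone held 37.8% of the mucin TPM, compared with 5.40% in library 1.

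**Figure D4:**
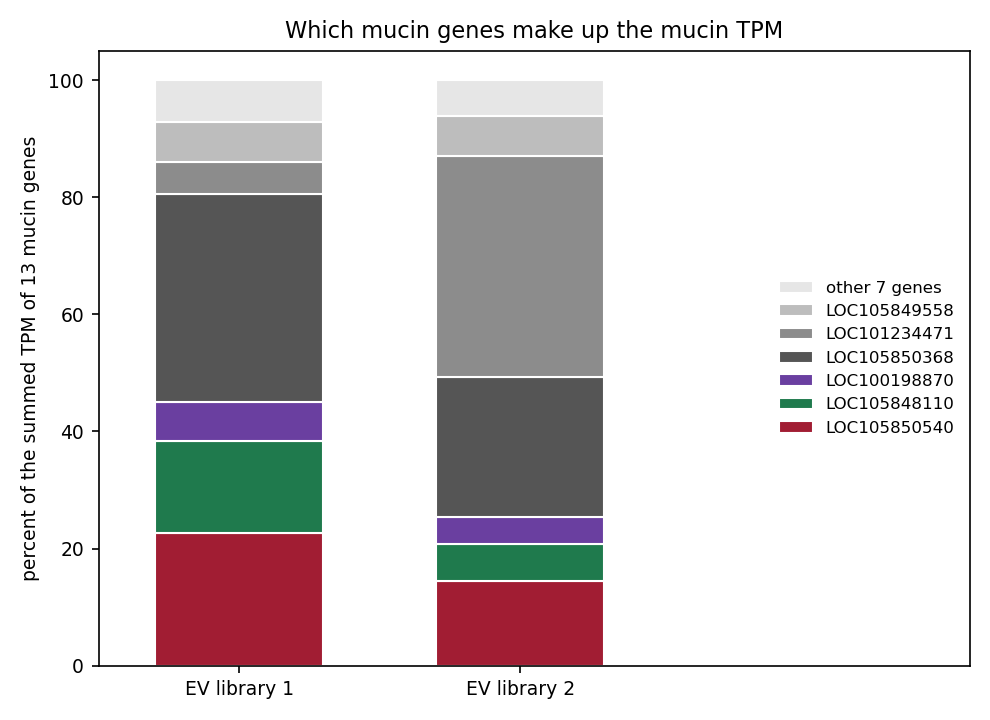
Percent of the summed TPM of the 13 mucin genes (y axis) that each gene held in EV library 1 (left bar) and EV library 2 (right bar), with the chosen genes in colour at the bottom and the other genes in grey. The chosen genes held 45.0% in library 1 and 25.4% in library 2, where LOC101234471 held 37.8%.

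The lncRNA LOC105848111, a transcript without a known protein product, is listed directly before LOC105848110. The study describes an lncRNA next to a mucin5AC locus that it found as mRNA and as protein, without giving their identifiers there. LOC100198870, the mucin-5AC-like gene whose protein is listed, is not the one beside LOC105848111. The target of LOC105848111, 450 bases long, had 94 estimated counts in library 1 (76.0 to 115) and 3 in library 2 (0.619 to 8.77). These counts were whole. Per length LOC105848110 was at 1.26 times the lncRNA in library 1 (1.02 to 1.58) and at 1.24 times in library 2 (0.384 to 6.39). The interval of library 2 spans more than a 10-fold range, since it rests on 3 counts of the lncRNA. Whether the transcripts overlap or lie on opposite strands was not examined, and the kit and counting are not described by strand in the sources used here.

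The genes whose pair of levels was most like that of each mucin, by Euclidean distance in log2(TPM + 0.1) over both libraries, were named by rule, 3 for each. Nearest to LOC105850540 were the ribosomal protein genes L13-like LOC100199467 (51.7 and 6.83 TPM), S12 LOC100202980 (46.4 and 5.41 TPM) and P2-like LOC100199163 (52.2 and 8.27 TPM), at distances of 0.51 to 0.70. Nearest to LOC105848110 were betaine-homocysteine S-methyltransferase LOC100206048, an enzyme of methionine metabolism (30.8 and 2.28 TPM), ribosomal protein S6 LOC100200285 (31.0 and 3.69 TPM) and the gene of the scaffold protein AHNAK, LOC101240323, (27.4 and 1.74 TPM), at 0.63 to 0.91. Nearest to LOC100198870 were elongation factor 2 LOC100203564, which moves the ribosome along the mRNA (22.4 and 1.85 TPM), polyadenylate-binding protein LOC100205111 (23.0 and 1.5 TPM) and antizyme inhibitor 2-like LOC100202037 (24.3 and 2.25 TPM), at 0.14 to 0.39. Only 2 libraries enter this distance, so it describes level and fold and nothing more.

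Mucins pass through the endoplasmic reticulum and the Golgi apparatus, and 19 genes of this route were described in the given list. Of these 10 were under 3 counts in library 2, 4 of them at 0, and 10 were at 0.4 TPM or more in both. TPM was higher in library 1 for 15 of the 15 with counts in both, beside 83.9% of mRNA targets above 0 in both. The highest was calreticulin, a chaperone of glycoprotein folding (LOC100203010), with 20.3 TPM in library 1 and 3.61 TPM in library 2, below LOC105850540 in both and level with LOC100198870 in library 1. In library 2 calreticulin, on 24 counts, had a higher TPM than LOC105848110 (2.40 TPM, 28 counts) and LOC100198870 (1.8 TPM, 12 counts). No interval of these ratios is given, so their order there is not settled. The lowest mean was that of the translocon subunit Sec61 beta-like LOC100205562, with 2.24 TPM in library 1 and 0 in library 2. The median log2 ratio was 2.62, or 2.22 with the 4 genes at 0 in library 2 set to their lower bound.

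Among 14 other genes of extracellular proteins the highest was the microfibril gene fibrillin-2-like LOC100202765, with 27.9 and 2.01 TPM summed over 2 adjacent targets. It was under LOC105850540 and LOC105848110 in both libraries and above LOC100198870. In library 2 it had 23 counts, and its TPM lay inside the intervals of LOC105848110 (1.59 to 3.46) and LOC100198870 (0.930 to 3.15). Its order to these genes is therefore not settled there. The lowest was SCO-spondin-like LOC100213558, with 2.27 and 0.145 TPM. The 10 genes with counts in both libraries were each at least 4-fold higher in library 1, beside 43.7% of mRNA targets above 0 in both and 79.3% of those with at least 100 counts in library 1, and 8 of the 14 were under 3 counts in library 2. The median log2 ratio was 4.15, or 3.21 with 4 genes at their lower bound. The mucin median of 3.43, or 3.38, stood between this list and the secretory genes as deposited and above both with bounds.

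Genes picked by words of their descriptions, as possible signs of cell types, were also measured. No marker list was given for them, and their cell types were not checked here. The study places the dickkopf-like genes LOC100192274 and LOC100192275 in zymogen gland cells, by matching to a published atlas of single cells. The 8 minicollagens, wall proteins of the stinging capsules made by nematocytes, had their highest mean in Minicollagen 6 (nb001, 2 adjacent targets summed), with 27.7 and 9.09 TPM, and the lowest was Minicollagen 16 (LOC100205002) with 2.67 and 0.317 TPM. Their summed level was 88.2 TPM in library 1 and 29.2 TPM in library 2, with none at 0 but 5 of 8 under 3 counts in library 2. The 4 genes of the gland cell list, made of dickkopf-like and chitinase genes, summed to 16.6 and 4.96 TPM. Of these the acidic mammalian chitinase-like gene LOC100203513 had 0 counts in library 2. The highest mean was that of LOC100192274 with 5.92 and 2.12 TPM, and the lowest that of LOC100192275, with 1.68 and 2.67 TPM on 5 counts in each library. Both actin genes together had 146 and 39.4 TPM. The mucin sum of 305 and 38.4 TPM was above the minicollagen and gland cell sums in both libraries, but it runs over 13 genes. Per gene, the median of the mean TPM was 3.03 for mucins, 3.27 for minicollagens and 2.29 for the gland cell list. Against the actin sum the mucin sum was higher in library 1 and slightly lower in library 2. The part of any cell type in the mucin values was not tested.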

How the data were processed

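RNA of EVs was sequenced in 2 libraries of 1 condition. The authors trimmed the paired reads with TrimGalore! and quantified them with kallisto on the NCBI transcripts of the assembly Hydra_RP_1.0; the version of kallisto and the strand setting are not given in the sources used here. The estimated counts were deposited without normalization; a read that fits several targets is divided among them. The deposited TPM values are scaled by the authors to one total over all targets of a library.

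For gene names the given part of the study's supplementary list, 1264 genes, was used. Its TPM pairs served only as a key: 1107 genes matched a single target, 93 a run of up to 6 adjacent targets, and the others were not used. The relative tolerance was 0.0001. All 13 genes described as mucin matched. The annotation of HydraT2T_AEP was used only to look up names.

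The members and lists were chosen with earlier results of these data known. The named genes are the 3 chosen genes, every gene described as mucin, the lncRNA listed beside LOC105848110, the 3 nearest named mRNA targets of each chosen gene with at least 10 counts in both libraries, and the highest and lowest gene of each list. The lists were selected by words of the descriptions (secretory pathway, other extracellular proteins, minicollagens, gland cell and actin genes), and the 2 chitinase genes stand in the extracellular and the gland cell list.

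Log2 ratios used a pseudocount of 0.1 TPM, and understate the change of low genes. Intervals are at 95%: exact Poisson for counts, exact binomial for count ratios and Wilson for shares. No test was made, as there is 1 condition, and no differential expression tool was used. Alternatives were rescaled TPM, CPM, a pseudocount of 1 TPM, other filters and thresholds, and each library left out. The matching and the ratio were tested on simulated libraries. Python 3.11.15, pandas 2.3.3, NumPy 2.4.6 and SciPy 1.17.1 were used.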

Additional observations from a re-analysis of the deposited data

How the results depend on the processing

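With TPM rescaled after removal of the 5 highest targets and of annotated ribosomal RNA, the mean level was 1282 TPM for LOC105850540, 855 TPM for LOC105848110 and 383 TPM for LOC100198870. Rescaled over mRNA targets only, again without the 5 highest targets, the means were 2167, 1424 and 650.0 TPM. The log2 ratios of library 1 over library 2 then became 2.75, 3.43 and 2.62. With library 1 or library 2 alone the level of LOC105850540 was 5.55 to 69.0 TPM, that of LOC105848110 2.40 to 47.7 TPM and that of LOC100198870 1.8 to 20.5 TPM. The share of mRNA targets at least 4-fold higher in library 1, 50.3%, was 77.3% with at least 10 counts in library 1 only, 22.8% within mRNA and 79.3% with at least 100 counts in library 1, a filter chosen after seeing the data, and 12.9% were at least 10-fold higher. The 3 genes held 35.2% of the mucin TPM on average over the libraries, 25.4% to 45.0% in a library alone, 42.7% in counts and 35.8% without the mucin-like hormone receptor, also tried after seeing the data. Between 6 and 10 mucin genes passed the other detection thresholds, against 8 at 0.4 TPM, again without a share over all mRNA targets. A pseudocount of 1 TPM or CPM in place of TPM moved the log2 ratios of the 3 genes by less than 0.5. No paired analysis was possible because there is 1 group of 2 libraries. The serine, threonine and proline content of the proteins was planned and not run, since no protein sequences were used here. Library 2 limits these results: a chosen gene had at most 35.0 estimated counts there.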

Other observations

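Of the 6 targets listed directly beside the 3 chosen genes, 4 had counts in library 1 and 2 in library 2. One of them is the lncRNA described above. The other is LOC105850539, an uncharacterized gene listed directly before LOC105850540, with 22.9 and 1.05 estimated counts, or 3.98 and 0.290 TPM. Its counts, like those of LOC105850540, were fractional in both libraries. Mucin-2-like LOC105849558 and integumentary mucin C.1-like LOC105849557 are also listed side by side, with 21.0 and 2.41 TPM in library 1. These targets were picked for their place in the listing, and the order of the listing does not show that they are neighbours in the genome.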
